A study of Mus musculus with 8 samples.

Results

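Monocytes and dendritic-like myeloid cells of the mouse cortex were taken as single cells chosen by expression, and 110 such cells were found among the 50254 cells kept from 56961 barcodes. A cell was a member when Lyz2, the lysozyme of myeloid cells, reached 20 UMIs (counted molecules) per 10000, written CP10k, and when Plac8, Ccr2, Il1b and Lgals3 together reached 10 CP10k. Upper limits kept out perivascular macrophages (Pf4, Mrc1, F13a1 and Ms4a7 under 20 CP10k), microglia (P2ry12 and Tmem119 under 10), neutrophils (S100a8 and S100a9 under 50), endothelial cells (Cldn5, Flt1 and Pecam1 under 20) and B cells (Cd79a and Cd79b under 10). All of these limits were set on measured values, so the levels of these genes describe how the cells were chosen. The lowest Lyz2 value inside the limit was 20.08 CP10k, and the nearest cell that failed on Lyz2 alone had 18.98. The perivascular macrophage sum reached 19.72 CP10k inside the limit and was 20.44 in the nearest cell outside it.

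The series measured single-cell RNA in the cortex of mice aged 8 weeks that had been perfused with cold PBS. Lama4-/- mice were set against their own WT control, and Tek-Cre:Lama5-/- mice against a separate WT control. Each group came from a pool of 3 brains and has 2 samples, and the labels do not say whether these are separate captures or repeat libraries of 1 pool. P-values therefore measure only the spread between these libraries, which may be technical. Outside the Lama4-/- samples, 12 to 24 barcodes were shared by the 2 samples of a group, of 6295 to 9556 in each. Both Lama4-/- samples hold identical matrices and barcodes and were counted as 1 library, here called the Lama4 KO library. The 7 distinct libraries held 35479306 to 48314458 UMIs, and no barcode was shared by 2 libraries among the members. Lama4-/- is given without a Cre driver, whereas Tek-Cre acts in the endothelial lineage and, in Tek-driven Cre lines generally, also in precursors of blood cells. In endothelial cells Lama4 stood at 47.4 and 45.1 CPM (UMIs per 1000000) in the WT libraries and at 0.0573 in the Lama4 KO library, and Lama5 at 42.8 and 42.4 CPM in its WT against 24.4 and 26.8 in the Lama5 KO. The members held 0 Lama4 UMIs in every library and 3 Lama5 UMIs over all of them, so neither deletion could be checked in the members themselves.

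Monocytes are made in the bone marrow and circulate in blood, from which they can enter tissue and become macrophages or cells resembling dendritic cells. Classical monocytes carry Ly6C and the chemokine receptor Ccr2, whereas nonclassical monocytes, which patrol the vessel wall, have little Ly6C and depend on the transcription factor Nr4a1. MHC class II molecules, assembled with the invariant chain Cd74, display peptides to helper T cells, and their genes share a conserved promoter module driven by the coactivator Ciita. Laminins 411 and 511, whose alpha chains are the products of Lama4 and Lama5, are the main laminins of the endothelial basement membrane that leukocytes cross when they leave vessels.

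MHC class II genes were 4 of the 8 genes called in the Lama5 comparison. The stretch just upstream of 3 genes of this list is shown because it holds the letters of the Y box, TGATTGG, bound by the factor NF-Y. Of these 3, H2-Aa and H2-Eb1 were called and H2-DMb1 was not. The sequences are from RefSeq on GRCm38.p6, run 5′ to 3′ on the strand of the gene and end at the base before the annotated start. Capitals mark TGATTGG.
H2-Aa (chr17.0:34287824-34287943, minus strand): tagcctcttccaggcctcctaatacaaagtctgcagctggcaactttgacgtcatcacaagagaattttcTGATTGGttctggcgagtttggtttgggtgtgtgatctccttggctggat
H2-Eb1 (chr17.0:34305747-34305866, plus strand): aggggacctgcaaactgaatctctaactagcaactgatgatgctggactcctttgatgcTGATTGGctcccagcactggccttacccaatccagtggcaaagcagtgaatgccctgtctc
H2-DMb1 (chr17.0:34153071-34153190, plus strand): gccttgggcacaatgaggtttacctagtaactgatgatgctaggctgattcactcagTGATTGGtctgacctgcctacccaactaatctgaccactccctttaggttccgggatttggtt
TGATTGG began 50 bases before the start of H2-Aa, 61 before that of H2-Eb1 and 63 before that of H2-DMb1. Read on both strands (CCAATCA on the other), it lay in the 120 bases before the start in 6 of the 9 windows of the MHC class II list and in 1691 of 32851 windows of all genes (5.15%). These 9 windows covered 8 of the 11 genes of the list. Cd74 and H2-Ab1, which were called, and Ciita had no window and were not searched. TGATGATG (CATCATCA on the other strand), a second run of letters searched in the same way, was found in 2 of the 9, those of H2-Eb1 and H2-DMb1, and in 207 of all windows (0.63%). The same stretch held TGATTGG in 4 of 10 windows of the MHC class I list, in 0 of 14 of the classical monocyte list and in 1 of 13 of the nonclassical list. These matches describe letters only. H2-Ab1 (chr17:34257689-34269419), H2-Aa (chr17:34282744-34287823) and H2-Eb1 (chr17:34305867-34316674) are protein-coding genes that lie close together, on GRCm38 in the GENCODE M21 annotation.

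Members were rare and unevenly spread. There were 32 and 31 members in the Lama4 WT libraries and 27 in the Lama4 KO library. The Lama5 WT libraries had 2 and 7, and the Lama5 KO libraries 7 and 4. As a share of kept cells this was 0.572% and 0.581% in the Lama4 WT, 0.504% in the Lama4 KO, 0.0234% and 0.0821% in the Lama5 WT, and 0.0840% and 0.0468% in the Lama5 KO. Every library of the Lama4 experiment was above every library of the Lama5 experiment, with 90 of 16281 cells (0.553%, exact binomial 95% interval 0.445 to 0.679) against 20 of 33973 (0.0589%, 0.0360 to 0.0909). These intervals, like all intervals given here, cover counting error only. The WT groups alone did not overlap, and the exact two-sided permutation test gave p = 0.33, the smallest p that 2 libraries against 2 allow. The same held for the share among myeloid cells (members, perivascular macrophages, microglia and neutrophils), at 1.82% and 1.81% in one WT and 0.310% and 1.13% in the other. Experiment and mouse pool cannot be told apart in this difference. No doublet caller was run, and 6 members that also held markers of another cell class are treated as possible doublets in the alternatives.

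The shares were then compared between KO and WT. The Lama5 KO minus WT difference was 0.0126 percentage points of kept cells, with overlapping libraries (exact two-sided permutation p = 0.6667, smallest possible 0.33). Its sign was the opposite when the limits of the choosing rule were tightened, when the share was taken among myeloid cells, or when Lama5 WT library 1 or Lama5 KO library 1 was left out. The Lama4 KO library lay below both WT libraries by more than these differed from each other (KO minus WT mean -0.0725 percentage points, SD of the WT libraries 0.00661), while its counting interval (0.33% to 0.73%) covered both WT shares. Under the tightened rule the difference was 0.00546, so its sign turned, and with 1 KO library there is no test.

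**Figure D1:**
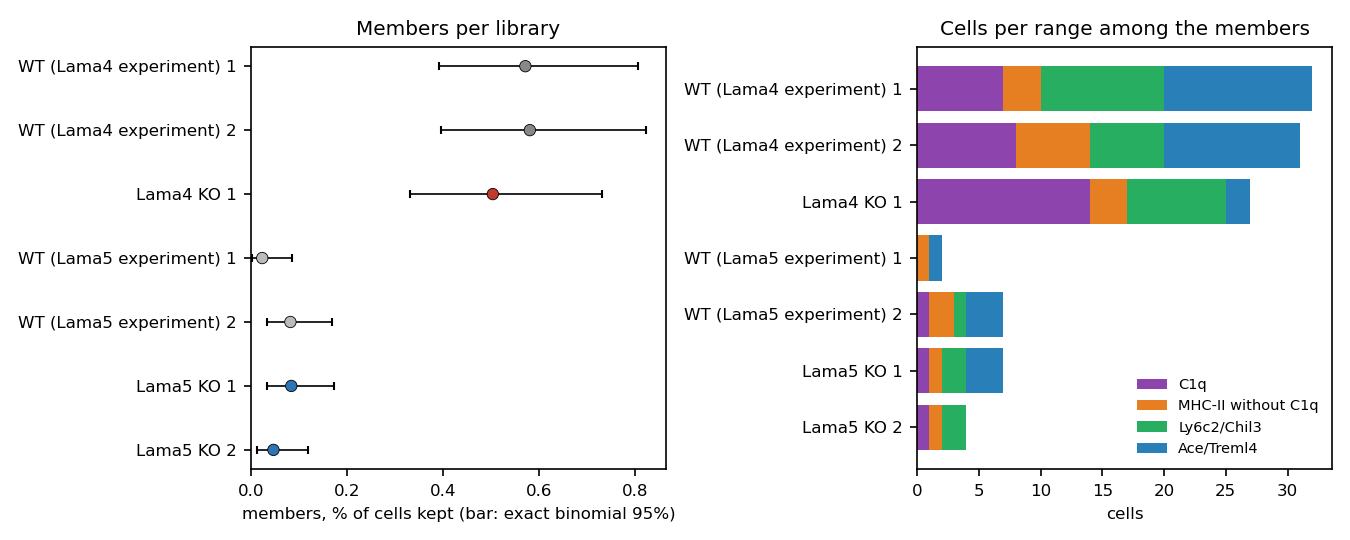
Left, members as a percentage of kept cells in each of the 7 libraries, with exact binomial 95% intervals. Right, cells in each of the 4 ranges of members, where the 3 libraries of the Lama4 experiment hold 27 to 32 cells and those of the Lama5 experiment 2 to 7.

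The label was checked against its markers. A UMI of Lyz2, which chose the cells, was found in 110 of 110 members, of Cd74 in 77 (70.0%), of Plac8 in 67 (60.9%), of Ccr2 in 64 (58.2%) and of H2-Aa in 48 (43.6%). Endothelial cells, which should lack these genes, had a UMI of Lyz2 in 1.42%, of Cd74 in 0.635%, of H2-Aa in 0.344%, of Plac8 in 0.0717% and of Ccr2 in 0.0395% of 27877 cells. Median depth was 3697 to 7602 UMIs per member and 2749 to 6112.5 per endothelial cell across libraries. After thinning every cell to 1000 UMIs, which kept 109 members and 27516 endothelial cells, the shares were 56.9% against 0.204% for Cd74 and 49.5% against 0.0182% for Plac8. Lyz2, Plac8 and Ccr2 helped to choose the cells, so their excess over endothelial cells describes the choice. Of the 5 label markers, Cd74 and H2-Aa were not among the genes of the limits, and H2-Aa stood at 42.2% against 0.0800% after thinning.

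Genes that define dendritic cells were scarce. Flt3, the growth factor receptor of dendritic cells and their precursors, had a UMI in 10 of 110 members, and Zbtb46, a transcription factor of conventional dendritic cells that endothelial cells also express, in 2. Clec9a, a marker of type 1 dendritic cells, was seen in 1 member, while Xcr1 (type 1) and Ccr7 (migratory dendritic cells) were seen in none. A count of 0 among 110 cells allows a share of up to 2.73% of cells with a UMI. Cd209a, a lectin of type 2 and monocyte-derived dendritic cells, had a UMI in 14. The dendritic part of the label thus rested on MHC class II genes and on Cd209a, and not on the defining genes of type 1 or migratory dendritic cells. MHC class II was not limited to dendritic-like cells. Of the 46 MHC class II-high members described below, 29 were C1q cells, which went against the label.

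The MHC class II sum (Cd74, H2-Aa, H2-Ab1 and H2-Eb1) split the members into low and high cells. It was 0 in 32 cells, 250 CP10k or more in 43, and between 110 and 250 in none. A limit of 50 CP10k called 46 cells MHC class II-high, of which 3 lay under 110, and 5 others lay from 20 up to 50. The complement C1q sum (C1qa, C1qb and C1qc) also had a gap, from 11.9 to 36.0 CP10k. After these values were seen, the members were divided into 4 ranges: 32 cells with C1q of 30 CP10k or more, 17 MHC class II-high cells without C1q, and the remaining cells by whether Ly6c2 plus Chil3 (29 cells) or Ace, Treml4, Cd300e, Pglyrp1 and Eno3 (32 cells) had the higher sum. Each is a range of a score and not a type, and the levels that follow are a description with no test. They are sums over all libraries, in which 90 of the 110 cells came from the Lama4 experiment.

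**Figure D2:**
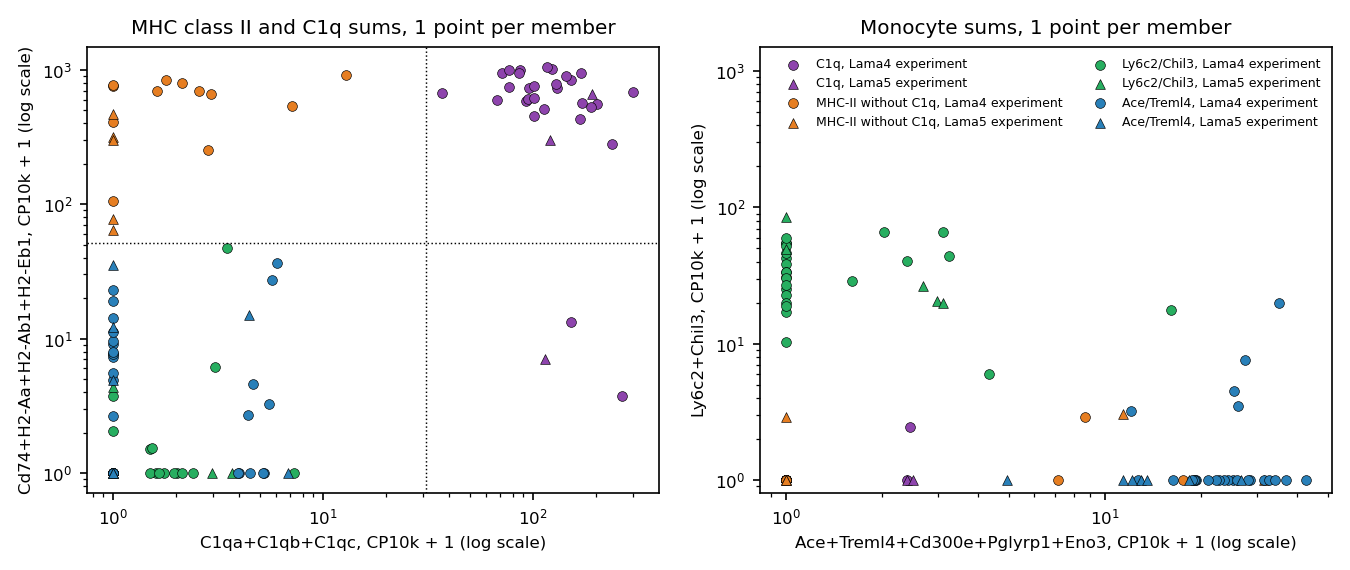
Each point is 1 member, placed by its summed CP10k plus 1 on log axes, coloured by range and shaped by experiment. Left, MHC class II against C1q, with dotted lines at the limits of 50 and 30 CP10k; right, Ly6c2 plus Chil3 against Ace, Treml4, Cd300e, Pglyrp1 and Eno3. The left panel shows 29 of the 32 C1q cells above the MHC class II limit.

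The C1q cells went against the label and are called here by their leading genes, C1q and Apoe. They had 5679 CPM of C1qb (exact Poisson interval 5379 to 5991), against 35.6 to 62.3 in the other ranges. Apoe, a lipid carrier of macrophages and glia, stood at 19120 CPM and the lipid receptor Trem2 at 730. Chemokines were abundant, with Cxcl2 at 6719 CPM, Ccl4 at 6536 and Ccl3 at 3646, and Il1b, which the rule used, at 4278. Plac8 had a UMI in 1 of these 32 cells. Ccr2 was found in 20 of the 32 and Mrc1, a macrophage lectin, in 21, whereas Lyve1, a marker of perivascular macrophages, had 0 UMIs and Sall1, a microglial transcription factor, was seen in 2 cells. MHC class II was as high as in the cells without C1q, with Cd74 at 26870 against 26700 CPM and H2-Aa at 11160 against 11000.

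The 17 MHC class II-high cells without C1q held most of the Cd209a signal, at 1446 CPM against 55.2 in the C1q cells and 0 in the others, from 10 of the 17 cells. Mgl2, a galactose lectin of type 2 dendritic cells, reached 1128 CPM, and Tnip3, a regulator of NF-kB signalling, 1515. The metal-binding Mt1 reached 1951 CPM and Ciita 150, with 8 of the 17 cells holding a Ciita UMI. H2-DMa, which loads peptide onto MHC class II, was at 1022 CPM here, 819 in the C1q cells, 178 in the Ly6c2/Chil3 cells and 45.7 in the Ace/Treml4 cells.

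The 29 Ly6c2/Chil3 cells carried genes of classical monocytes. Ly6c2 was at 1730 CPM and Chil3, a secreted chitinase-like protein, at 1556. Matrix genes stood out, with Thbs1 (thrombospondin) at 4059 CPM and Fn1 (fibronectin) at 1992, against at most 505 and 74.8 in the other ranges, and the proteoglycan gene Vcan at 252. Of these cells 7 had a cell cycle sum of 50 CP10k or more, and all 7 such members lay in this range. Mki67, a gene of dividing cells, had a UMI in 9 of the 29. H2-Aa had 1 UMI in this range and Cd74 165 CPM. F13a1, which classical monocytes also express, stood at 1042 CPM although it counted against a cell in the choosing rule. Without F13a1 in the limit there were 116 members, and 4 of the 6 added cells had Ly6c2 plus Chil3 above 5 CP10k.

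The 32 Ace/Treml4 cells carried genes of nonclassical monocytes. Ace, the angiotensin-converting enzyme, was at 632 CPM, Treml4, a receptor for dying cells, at 457, and Fabp4, a fatty acid-binding protein, at 639. Nr4a1 was at 1979 CPM against 556 to 773 in the other ranges. Adhesion genes were high, with Itgal (the alpha chain of LFA-1) at 1126 CPM against 12.7 to 200 elsewhere, Itga4 (the alpha chain of VLA-4) at 693 against 112 to 171, and Itgb2 at 967. Ccr2 had a UMI in 3 of these 32 cells, and Mki67 in none. Cells in this range were the shallowest, with a median of 4312 UMIs against 9630 in the Ly6c2/Chil3 cells and 7164 in the C1q cells.

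**Figure D3:**
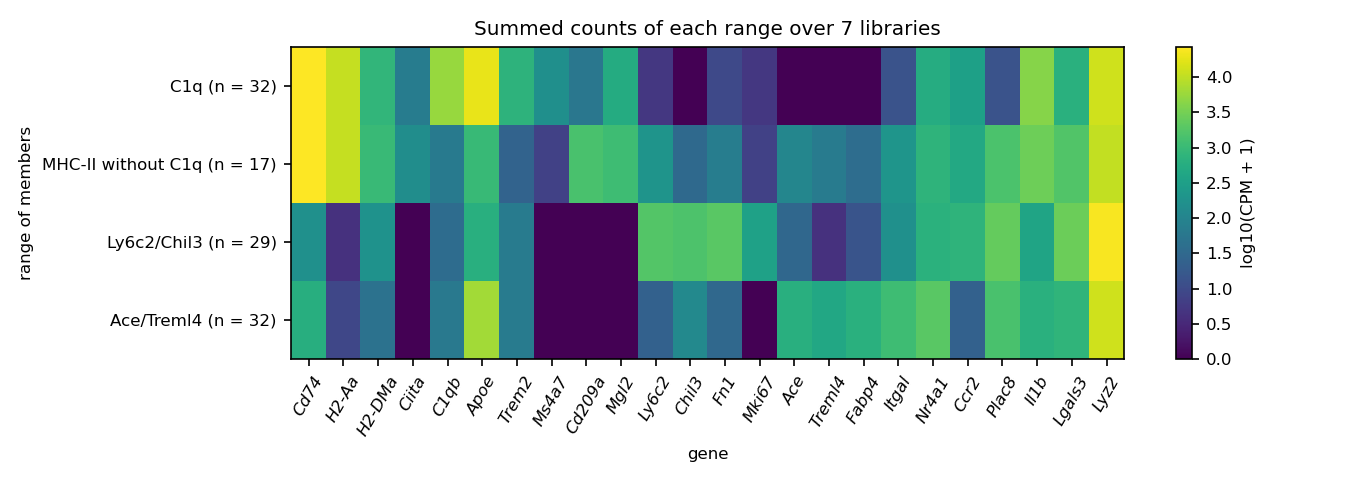
Levels of 24 genes in the 4 ranges of members, as log10 of CPM plus 1 from counts summed over 7 libraries. Cd74 and H2-Aa are brightest in the 2 upper rows, Ly6c2, Chil3 and Fn1 in the Ly6c2/Chil3 row, and Ace, Treml4, Fabp4 and Itgal in the Ace/Treml4 row.

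The makeup of the members differed between the Lama4 libraries. Ace/Treml4 cells were 12 of 32 and 11 of 31 in the WT libraries and 2 of 27 in the Lama4 KO library. C1q cells were 21.9% and 25.8% of WT members and 51.9% of those of the Lama4 KO library (exact binomial interval 31.9% to 71.3%), and the KO share was above both WT shares with overlapping intervals. MHC class II-high cells were 28.1% and 45.2% against 59.3%. Ly6c2/Chil3 cells numbered 10, 6 and 8. With 1 KO library these differences have no replicate check and no test.

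Gene levels in the Lama4 KO library were compared by a rule of size, which asks for a log2 ratio of at least 1 against each WT library, separate Poisson intervals and 20 counts in the 3 libraries. Of 4510 genes with enough counts, 17 (0.377%) passed higher and 31 (0.687%) lower, and the rule of size is no test. Among nonclassical monocyte genes 0 of 15 passed higher and 8 lower, with a median log2 ratio of -1.62 against -0.06 over all genes. Ace stood at 194 and 144 CPM in the WT libraries and 24.2 in the KO library. Treml4 stood at 120 and 89.5 against 19.3. Both lay below the WT libraries with separate intervals, and the same held for Adgre4, Dusp5, Eno3, Gngt2, Itgal and Pglyrp1. Of these genes, Ace, Treml4, Eno3 and Pglyrp1 also helped to define the Ace/Treml4 range. Their values are therefore not separate from the cell counts given above. Itgal was at 402 and 257 CPM against 101.5, and Gngt2, a subunit of a G protein, at 490 and 366 against 159.5. Since the sums run over all members, fewer Ace/Treml4 cells and less RNA per cell cannot be told apart in these values. Within the C1q cells alone the log2 ratio of Gngt2 was 0.03, and Ace, Treml4, Adgre4 and Pglyrp1 were listed with a ratio of 0 there because they had no UMI.

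Among the lists of MHC class II, interferon and MHC class I genes no gene passed the rule of size in the Lama4 KO library. The log2 ratio was above 0 for 8 of 9 MHC class II genes (median 0.51), against 1993 of 4510 over all genes. Cd74 stood at 17480 CPM against 9606 and 14920 and H2-Aa at 7169 against 3948 and 5744. These sums run over all members, of which 59.3% were MHC class II-high in this library against 28.1% and 45.2% in the WT. Within the C1q cells Cd74 was at 30030 CPM in the KO library against 24690 and 30170, and H2-Aa at 12270 against 10570 and 11190. In MHC class II-high cells without C1q Cd74 was at 25130 CPM against 31600 and 30920, and H2-Aa at 10980 against 12830 and 12370. The KO library held 14 and 3 of these cells. The interferon list had a ratio above 0 in 12 of 14 genes, with a median of 0.83. Cd74 was also higher in this library in other cells, at 2933 CPM against 771 and 792 in perivascular macrophages and at 353 against 31.3 and 30.6 in microglia. H2-Aa in microglia was at 95.6 CPM against 1.79 and 1.22.

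Several genes that were higher in the Lama4 KO library rested on few cells. Gbp2, an interferon-induced GTPase, was at 28.2 and 7.78 CPM in the WT and 232 in the KO library, where 3 of 27 cells held it and 1 cell gave 60.4% of its UMIs. Ly6a, a surface protein induced by interferon, was at 17.6 and 23.4 against 232, from 5 cells. AW112010 was at 67.0 and 35.0 against 285, and Axl, a receptor for dying cells, at 74.0 and 31.1 against 169. Ccl5, a chemokine of T cells, was at 84.6 and 42.8 against 391.5 CPM, with 86.4% of the KO UMIs in 1 cell. Its log2 ratio of 2.61 became -0.19 without possible doublets and -6.44 without the C1q cells. Mmp12 (macrophage elastase), Ly6i and Cd72 also passed higher. Ttr, a gene of the choroid plexus, was at 91.7 and 101 against 831 CPM, and it was seen in 27 of 27 KO members. It was likewise higher in the same library in perivascular macrophages, at 8121 CPM against 167 and 114, and in microglia, at 1451 against 146 and 112. The part of free RNA in this was not tested.

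Among genes past the size rule on the lower side, Ccl7, Cxcl1 and Ccl2 encode chemokines, while Ccl5 passed on the higher side. The inflammatory list as a whole had 0 of 15 genes past higher and 1 lower (Ccl2), with a median log2 ratio of 0.18. Ccl7 had 0 UMIs in the KO library against 219 and 77.8 CPM in the WT libraries, at least 10.5-fold lower against a floor of 3 counts, and 96.8% of the UMIs in WT library 1 came from 1 cell. Cxcl1 had 1 UMI in the KO library against 27 and 69, and Ccl2 stood at 254 and 638 CPM against 53.2. Its log2 ratio of -3.06 became 0.86 under the tightened choosing rule, and without the C1q cells the KO library (62.6 CPM) was level with WT library 1 (63.9) and below WT library 2 (735). In WT library 2 a single cell gave 98.6% of the Cxcl1 UMIs. Flrt3, Slc7a1, Prkch and Tinagl1 had no UMI in the KO library, with at least 3.83-, 3.19-, 3.19- and 2.81-fold lower levels. Cd36, a scavenger receptor of nonclassical monocytes and endothelium, was at 180 and 148 CPM against 48.3, and Clec4e, a pattern receptor, at 250 and 167 against 72.5. Markers of pericytes and smooth muscle summed to 1132 CPM in WT library 1 against 113 in WT library 2 and 222 in the KO library, and their part in these values was not tested.

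**Figure D4:**
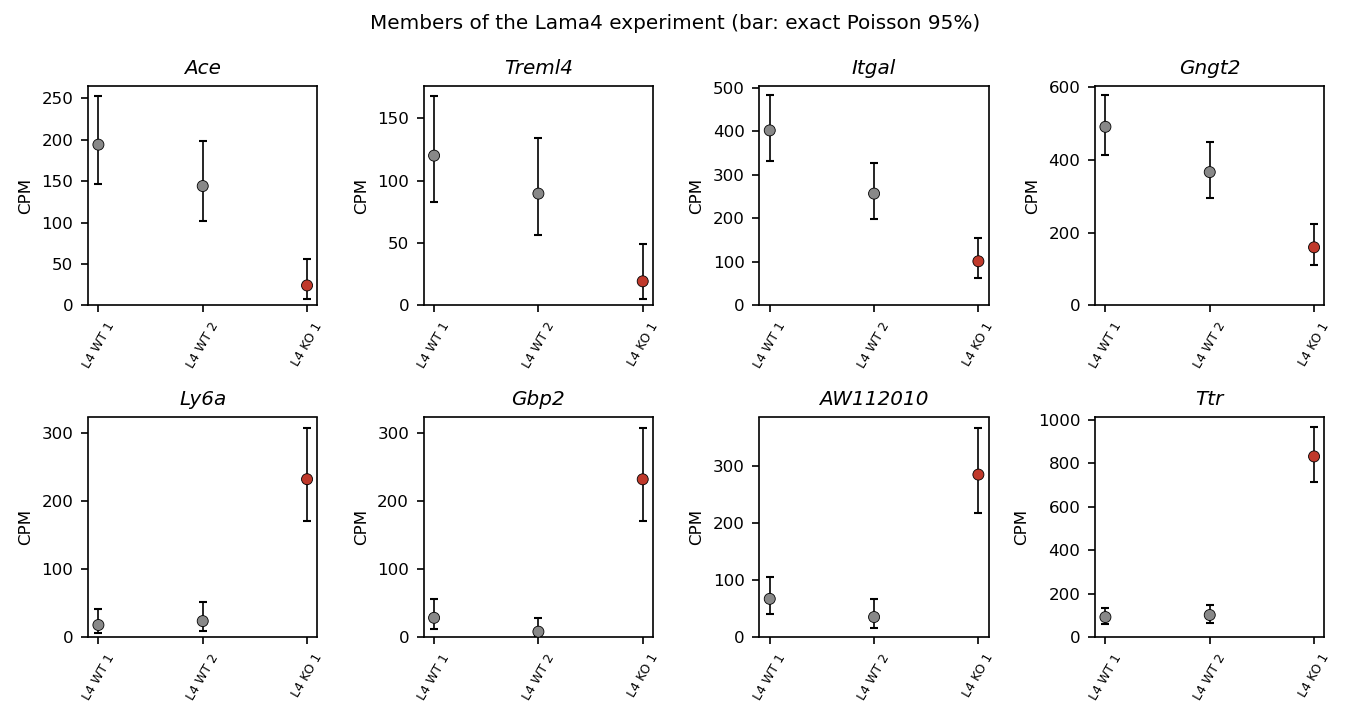
CPM of 8 genes over the members of each Lama4 library (L4 WT 1, L4 WT 2 and the 1 distinct L4 KO library), with exact Poisson 95% intervals. Ace, Treml4, Itgal and Gngt2 are lower in the KO library, and Ly6a, Gbp2, AW112010 and Ttr higher, than in both WT libraries.

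The Lama5 KO was tested against its WT on counts summed over members, with 9 WT and 11 KO cells in all. MHC class II genes rose, as did Fn1 and Thbs1, while Nr4a1 and B2m fell. Of 355 genes tested 8 (2.25%) passed an adjusted p of 0.05 in edgeR's quasi-likelihood test with Benjamini-Hochberg adjustment, 6 higher and 2 lower in the KO, and 38 had an unadjusted p under 0.05. With RLE in place of TMM size factors 6 were higher and 1 lower, since B2m was no longer called. DESeq2 called 0 genes, with 16 at an unadjusted p under 0.05. The self-test on simulated counts for this comparison on 361 genes recovered 61 of 90 changed 4-fold, with 2 false calls. It gave every gene the same spread, so it does not cover genes whose counts come mostly from a single cell. Its false calls therefore say little about the 8 genes called here.

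H2-Eb1, a beta chain of MHC class II, was at 0 and 782 CPM in the WT libraries and at 4055 and 7217 in the KO libraries (log2 difference 3.34, SE 0.42, edgeR adjusted p = 4.6e-12). H2-Ab1 was at 1182 and 931 against 2906 and 6701 CPM (log2 difference 2.23, SE 0.40, edgeR adjusted p = 6.0e-06). The alpha chain H2-Aa was at 526 and 1601 against 3448 and 6959 CPM (2.07, SE 0.38, edgeR adjusted p = 9.1e-06). For each gene both KO libraries lay above both WT libraries. The invariant chain Cd74 followed with 2628 and 3947 against 7025 and 9708 CPM (1.31, SE 0.38, edgeR adjusted p = 0.034). Thus 4 of the 5 MHC class II genes tested rose, with a list median of 2.07 against -0.06 over all genes tested.

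These values rested on a handful of cells. MHC class II-high cells numbered 1 of 2 and 2 of 7 in the WT libraries and 2 of 7 and 2 of 4 in the KO libraries, so their mean share was 39.3% in both groups (difference 0, exact two-sided permutation p = 1.0). The 3 WT cells had MHC class II sums of 63.2, 76.5 and 298 CP10k, and the 4 KO cells 301, 317, 471 and 659. All 4 KO cells thus lay above the 3 WT cells, by 301 against 298 at the closest, and cells are not replicates. The cells also differed in kind. Of the KO cells 2 carried C1q and the other 2 held Cd209a (8.61 and 5.19 CP10k), while these WT cells held neither. The part of this makeup in the calls was not tested. One cell gave 90.5% of the H2-Eb1 UMIs in WT library 2, 55.1% in KO library 1 and 79.2% in KO library 2. With a limit of 100 CP10k in place of 50 the difference in the share was 32.1 percentage points (exact two-sided permutation p = 0.33), with a limit of 20 it was -7.14, and under the tightened choosing rule -25. In perivascular macrophages of the same libraries Cd74 did not follow, at 677 and 763 CPM in the WT libraries against 508 and 21.

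Fn1 was at 0 and 186 CPM in the WT libraries against 862 and 1031 (log2 difference 2.76, SE 0.79, edgeR adjusted p = 0.034), and Thbs1 at 0 and 149 against 639 and 988 (2.82, SE 0.85, edgeR adjusted p = 0.046). Both genes lead the Ly6c2/Chil3 cells, which numbered 0 and 1 in the WT libraries and 2 and 2 in the KO libraries. Fn1 was the 1 of 7 classical monocyte genes tested that was called, with a list median of 0.22. Nr4a1 was at 1577 and 1266 against 351 and 172 CPM (-2.30, SE 0.64, edgeR adjusted p = 0.029), and was the 1 of 4 nonclassical genes called, with a list median of -2.11. Ace/Treml4 cells numbered 1 and 3 in the WT libraries and 3 and 0 in the KO libraries. B2m, the light chain of MHC class I, was at 3679 and 4804 against 1852 and 1718 CPM (-1.24, SE 0.36, edgeR adjusted p = 0.034) and was the 1 of 3 MHC class I genes called.

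No gene was called among 9 dissociation-response, 6 adhesion, 5 inflammatory, 3 complement or 10 ribosomal genes tested. Markers of endothelial cells summed to 2363 CPM in KO library 1 against 129 in KO library 2 and 394 and 521 in the WT libraries, and their part in the calls was not tested. Of the 8 genes, H2-Eb1 was called in 9 of 10 alternatives with a p-value, and H2-Aa and H2-Ab1 in 7 of 10. B2m was called in 2 of 11, so it rested most on the chosen settings. Leaving out KO library 2 left 1 called gene, ending the calls of H2-Aa, H2-Ab1, Cd74, Fn1, Thbs1, Nr4a1 and B2m, and leaving out WT library 2 gave 15.

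**Figure D5:**
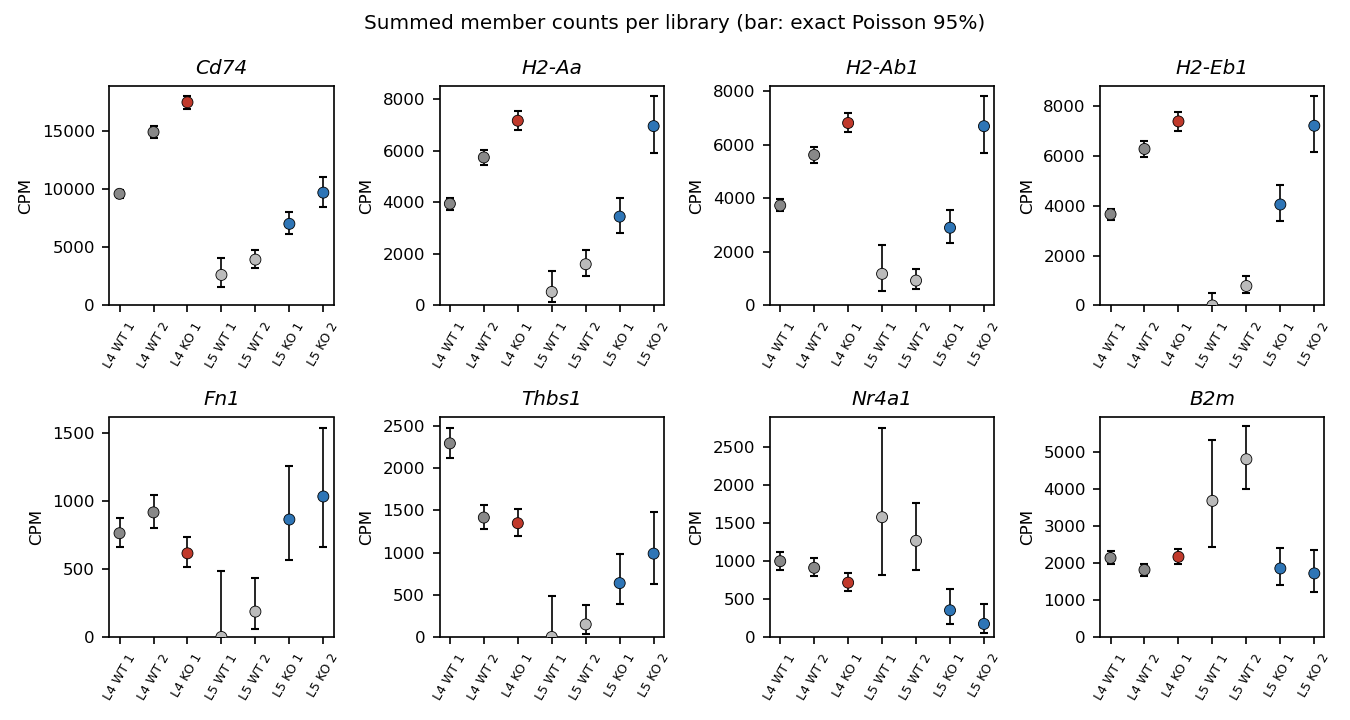
CPM over members in each of the 7 libraries (L4, Lama4 experiment; L5, Lama5 experiment) with exact Poisson 95% intervals for the 8 genes called in the Lama5 comparison. Cd74, the H2 genes, Fn1 and Thbs1 are higher, and Nr4a1 and B2m lower, in both L5 KO libraries than in both L5 WT libraries.

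The WT groups of the 2 experiments were compared with each other to show how far the control pools lay apart. This comparison shares the Lama5 WT libraries with the one above, so their values are given side by side and not as separate evidence. Of 2410 genes tested 23 (0.954%) passed in edgeR, 5 higher and 18 lower in the Lama5 WT, and 276 had an unadjusted p under 0.05. Among MHC class II genes 0 of 7 rose and 4 fell (median log2 fold change -2.18, against -0.25 over all genes). Cd74 was at 9606 and 14920 CPM in the Lama4 WT and 2628 and 3947 in the Lama5 WT (-2.18, SE 0.45, edgeR adjusted p = 0.023), and H2-Eb1 at 3663 and 6285 against 0 and 782 (-3.45, SE 0.60, edgeR adjusted p = 0.0058). The Lama5 KO libraries, at 7025 and 9708 CPM for Cd74, lay above the Lama5 WT and overlapped the Lama4 WT.

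Genes of the response to tissue dissociation were lower in the Lama5 WT members, with 5 of 18 called and none higher. Fos, an immediate early gene, was at 2066 and 2214 CPM against 0 and 149 (-4.51, SE 0.60, edgeR adjusted p = 0.00042), and Dusp1 and Zfp36 also fell. Hspa1a, a heat shock gene whose reads can be shared with its near-identical copy Hspa1b, was at 1636 and 2315 CPM against 0 in both Lama5 WT libraries, at least 22.5-fold lower. Hspa1a was also lower in the Lama5 WT in other cells, at 6694 and 6760 against 440 and 397 CPM in microglia and at 7336 and 5999 against 2597 and 2003 in perivascular macrophages. Fos was not lower there, at 465 and 516 against 1251 and 1190 CPM in microglia and at 2526 and 2290 against 3004 and 2382 in perivascular macrophages. Hist1h2ap, a histone gene, was at 501 and 370 CPM against 0, Cd209a at 321 and 420 against 0, and Mgl2 at 264 and 397 against 0, which is at least 5.04-, 4.23- and 3.76-fold lower over the pooled counts. Fn1 and Ly6c2 were the 2 of 14 classical monocyte genes that fell, and Thbs1, Mt1, Tgfbi and Crip1 fell as well.

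Higher in the Lama5 WT were AY036118 at 9723 and 4841 CPM against 501 and 401 (3.51, SE 0.38, edgeR adjusted p = 7.0e-05) and Gm42418 at 27590 and 23720 against 4463 and 5211 (2.00, SE 0.40, edgeR adjusted p = 0.019), gene models known to collect ribosomal RNA reads. Gm42418 was higher in microglia too, at 22840 and 21860 CPM against 4800 and 4778, so it was not limited to members. Nod1, a receptor for bacterial cell wall fragments, was also higher, on 7 UMIs. Lpl was called on 61 UMIs of 1 cell in 1 library, with 0 in the other.

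Members were then set beside the ranges most like them, perivascular macrophages (617 cells), microglia (7501) and neutrophils (103), in the same libraries. All ranges were chosen on expression in these cells, so the counts below describe the choice, carry no p and support nothing. Against perivascular macrophages 542 of 2778 genes (19.5%) were called higher and 667 (24.0%) lower. The classical monocyte list was higher in 10 of 10 genes (median log2 fold change 4.67, all genes -0.04) and MHC class II in 7 of 7 (3.48). S100a4, a calcium-binding protein of motile cells, was at 479 to 1405 CPM in members (median 819) and 0 in the median library of perivascular macrophages. Itgal, at 85.9 to 819 CPM (median 257), and Cd44, a hyaluronan receptor, at 261 to 1182 (median 634.5), were at medians of 1.57 and 3.14 there. Adhesion genes were higher in 9 of 12. Rpsa, the ribosomal protein also described as a laminin receptor, was higher. It was among the 8 of 10 ribosomal genes that were higher (median log2 fold change 1.17).

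Complement genes were lower than in perivascular macrophages in 7 of 7, although 32 members were C1q cells. Lyve1 had 0 UMIs in the members of every library against 423 CPM or more in each perivascular library, at least 213-fold lower, with Cd209f at least 165-fold and Ccl8 at least 102-fold lower. Igf1, a growth factor, was 61.6-fold and Vcam1, an adhesion molecule, 129-fold lower over the pooled counts. The dissociation list was lower in 15 of 18. Leaving the C1q cells out, or using the Lama4 libraries only, ended none of these directions among the genes named.

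Against microglia 804 of 7595 genes (10.6%) were called higher and 2624 (34.5%) lower. H2-Aa was at 526 to 7169 CPM (median 3948) against a median of 0.742 in microglia. Ifitm6, an interferon-induced transmembrane protein, was at 215 to 483 CPM and Napsa, an aspartic protease, at 129 to 572, both with a median of 0 in microglia. Microglial markers outside the choosing rule were lower in 10 of 10, with the fructose transporter Slc2a5 at 0 UMIs in members and at least 81.1-fold lower, and Siglech, a lectin, 63.8-fold lower. The classical monocyte list was higher in 10 of 10 (median 8.48, all genes -0.52) and the cDC1 list lower in 5 of 7. Of 4 laminin receptor genes tested, Dag1 and Itga6 were lower and Rpsa was higher. Rpsa was again among the 8 of 10 ribosomal genes that were higher (median 1.06).

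Neutrophils could be compared in the 3 Lama4-experiment libraries, where 515 of 3002 genes (17.2%) were called higher and 530 (17.7%) lower. H2-Aa, H2-Eb1 and H2-Ab1 had 0 UMIs in neutrophils and were at least 1190-, 1220- and 1140-fold higher in members. Neutrophil granule genes had 0 UMIs in members, with Camp at least 9140-fold, Ngp at least 6590-fold and Ltf at least 1280-fold lower. Neutrophil markers outside the rule were lower in 10 of 10. Itgb1, the beta chain shared by several laminin-binding integrins, was higher than in neutrophils, and in members it stood at 300, 214 and 140 CPM in the Lama4 WT and KO libraries and at 0, 261, 255 and 215 in the Lama5 WT and KO libraries.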

How the data were processed

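The authors made the deposited UMI counts per gene and cell with Cell Ranger on mm10, and Seurat 3.1 is also named, per the submitters' processing notes; the libraries are Chromium 3′ v3, per the labels' protocols. Barcodes with at least 500 genes and under 15% mitochondrial counts were kept. Members were chosen by the limits given in the report, and members and gene lists were chosen with earlier results of these data known. Counts were summed over members per library, since cells are not replicates, and tested with edgeR 4.0.16 (TMM, filterByExpr, quasi-likelihood, R 4.3.3), with DESeq2 1.42.0 as an alternative. P-values were adjusted over all genes tested, and genes of the choosing rules were left out of the counts. For the members against other ranges, library was a term. The code was tested on simulated counts. The Lama4 KO, with 1 library, was compared by size with a pseudocount of 0.5 CPM and no test.

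Named genes were the rule's genes, up to 4 per list, up to 12 called genes per direction for Lama5 (5 for WT against WT, 10 against other ranges) without overlap of the groups, and up to 8 per direction past the rule of size for Lama4, all with a minimum level. Lpl, whose groups overlapped, Il1b in ranges, and the genes that describe the 4 ranges were chosen after their values were seen. The 4 ranges themselves were also set then. Leaving out 1 library at a time, other filters, limits and size factors were tried.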

Additional observations from a re-analysis of the deposited data

How the results depend on the processing

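With 2 to 7 members in each Lama5-experiment library, depth limits every comparison that uses them, and the Lama4 KO is 1 library. The Lama5 KO minus WT share, 0.0126 percentage points of cells kept, became -0.00546 under the strict choosing rule and -0.201 as a share of myeloid cells, and ranged from -0.0167 to 0.0420 with 1 library left out. The Lama4 KO minus WT share, -0.0725, was -0.0955 with a stricter cell filter, 0.00546 with the strict rule, -0.0248 with the loose rule, -0.120 without possible doublets, -0.0841 after thinning to 1000 UMIs, -0.0909 without F13a1 in the rule and -0.0270 among myeloid cells. The 8 Lama5 calls became 1 with no low-count filter (7663 genes tested), 0 under the strict rule (edgeR, 4 genes at an unadjusted p under 0.05, 136 tested), 0 with DESeq2 (16 unadjusted) and 1 to 15 with 1 library left out. With the replicate number as a replicate block 4 remained in number. Deviations of same-numbered libraries correlated at 0.0016 over 635 genes for Lama5 KO against WT and at -0.045 over 3839 for WT against WT. With so few members per Lama5-experiment library, these values cannot decide whether the numbers pair the samples. The block gave 22 calls for WT against WT. Those 23 calls became 35 with RLE size factors, 36 with no filter, 9 under the strict rule, 42 without possible doublets and 13 to 118 with 1 library left out. The log2 fold change of Lpl there ran from -6.21 without Lama5 WT library 2 to 6.50. Calls against perivascular macrophages, 1209, became 2967 with no filter, 674 under the strict rule, 2251 in the Lama4-experiment libraries only (chosen after seeing the data, as were the settings on C1q cells, F13a1 and Lama4 doublets) and 2038 with DESeq2. The strict rule gave 2019 against microglia and 609 against neutrophils. The 48 genes past the size rule for Lama4 became 14 in C1q cells only and 102 to 131 with 1 WT library left out. Ratios that turned were Cd72 (-0.75) and Ccl2 (0.86) under the strict rule, Ccl5 without the C1q cells (-6.44) and without possible doublets (-0.19), and Gngt2 in C1q cells only (0.026). The cause was not tested in any of these. Of the single-gene values, 43 kept direction and call and 40 lost the call for Lama5. The fits on MHC class II-high or -low members alone were not run, because a library had under 20 such cells.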
